A study of Homo sapiens with 14 samples.

Results

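The NKX2 genes encode homeobox transcription factors of the NK2 class, and the pooled knockout library held guides against 7 of them: NKX2-1, NKX2-2, NKX2-3, NKX2-4, NKX2-5, NKX2-6 and NKX2-8. All guides whose target name begins with NKX2- were taken, which gave 48 of 11364 guides, with 6 for NKX2-6 and 7 for each other gene. The guides were carried by H9 cells, an established human embryonic stem cell line, in which Cas9 is switched on by doxycycline. The labels give the genotype as WT, and both the inducible Cas9 and the guide pool were shared by all groups. The day 25 samples were set against each other and against the starting pool: TNNT2- and TNNT2+ cells of 3D cultures, and TNNT2- and TNNT2+ cells of 2D cultures, with 3 replicates each, and undifferentiated cells at day 0 with 2 replicates. TNNT2 is cardiac troponin T, the sarcomere protein used to sort cardiomyocytes (TNNT2+) from the remaining cells (TNNT2-). The sort comparisons ask which knockouts are over- or under-represented in TNNT2- relative to TNNT2+ cells. The readout is guide abundance in genomic DNA, so neither expression of the NKX2 genes nor the share of edited alleles was measured.

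NK2 class factors bind DNA through a homeodomain and act as regulators of organ identity. NKX2-5 is the vertebrate counterpart of the Drosophila heart gene tinman. It works with GATA4 and TBX5 on cardiac promoters, and human variants in it cause septal and conduction defects. NKX2-6 is expressed in the pharyngeal endoderm and the early heart of mouse embryos, where it overlaps with NKX2-5. NKX2-1 specifies thyroid, lung and ventral forebrain, and NKX2-4 is its closest relative. NKX2-2 acts in the ventral neural tube and in pancreatic islets, NKX2-3 is needed for spleen and gut vasculature in mice, and NKX2-8 is active in the foregut.

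In the RefSeq annotation of GRCh38.p14, NKX2-5 lies on chromosome 5 from 173232109 to 173235206. NKX2-1 (chromosome 14, 36516397 to 36520232) and NKX2-8 (chromosome 14, 36580004 to 36582614) are neighbours separated by 59.8 kb. NKX2-4 (chromosome 20, 21395365 to 21397526) and NKX2-2 (chromosome 20, 21511017 to 21522689) lie 113.5 kb apart. NKX2-3 lies on chromosome 10 from 99532942 to 99536524, and NKX2-6 on chromosome 8 from 23701740 to 23706756. The files name guides by gene and number only, so where in a gene each guide cuts is not given here.

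The libraries held 22355936 to 31671019 reads. Representation of the guide pool was uneven in 4 libraries, in which more than 10% of all guides had fewer than 10 reads: 3D TNNT2- replicate 2 (11.1%), 3D TNNT2- replicate 3 (27.6%), 3D TNNT2+ replicate 3 (43.6%) and day 0 replicate 2 (32.5%). These are called thin below, and in the other 10 libraries the share was between 0.502% and 3.19%. Of the 48 NKX2 guides, 3, 12, 17 and 12 had fewer than 10 reads in the thin libraries, in the order just given. In the other libraries at most 2 did. Reads carry no molecular identifiers, so read counts give counting error only and not the number of cells behind a guide.

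Abundance is given as CPM, guide reads scaled to the library total, summed over a gene's guides. For NKX2-5 the order of the 5 group means was 2D TNNT2+ (808.1 ± 61.6 CPM, SD, n = 3), day 0 (716.6 ± 67.7, n = 2), 2D TNNT2- (661.8 ± 51.3, n = 3), 3D TNNT2- (625.6 ± 26.2, n = 3) and 3D TNNT2+ (563.9 ± 158, n = 3). Neighbours in this order overlapped in range, except 2D TNNT2+ and day 0, whose nearest libraries stood at 765.0 and 764.5 CPM. Per guide, these means placed NKX2-5 at the 43.1st percentile of 1621 genes in 3D TNNT2+ cells and at the 90.7th percentile in 2D TNNT2+ cells.

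The other members started from different places in the pool. NKX2-3 guides were abundant throughout, between the 98.0th and the 99.7th percentile of genes per guide in every group, day 0 included. NKX2-1 guides stood at the 43.9th percentile in 3D TNNT2- cells, against the 0.432nd percentile and 37.3 CPM per guide in 3D TNNT2+ cells. They were at the 13.3rd percentile in 2D TNNT2- cells, at the 18.3rd in 2D TNNT2+ cells and at the 41.3rd at day 0. The day 0 libraries differed, with a summed CPM of 374.5 in replicate 1 and 740.6 in thin replicate 2. In that thin library guide 7 held 70.6% of the NKX2-1 reads. In 3D TNNT2- cells the highest summed CPM, 709.8, was that of thin replicate 3. The order of the groups by summed CPM differed from gene to gene. Neighbours in it always overlapped in range for NKX2-2, NKX2-3, NKX2-4, NKX2-6 and NKX2-8, while the NKX2-1 range in 3D TNNT2+ cells lay below that of every other group. The share of all genes with such a group was not counted. On the log2 scale tested below, NKX2-1 in 3D TNNT2+ cells overlapped with 3D TNNT2- cells and with day 0.

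In 2D cultures NKX2-5 was the only gene of the family whose summed guides were less abundant in every TNNT2- library than in any TNNT2+ library, although it did not pass the test. Summed over the 7 guides, NKX2-5 stood at 635.8, 720.9 and 628.6 CPM in 2D TNNT2- replicates 1 to 3, against 878.7, 780.5 and 765.0 CPM in 2D TNNT2+ replicates 1 to 3. The groups did not overlap, and each TNNT2- library lay below the TNNT2+ library of the same number. Tests were run on the mean over guides of log2(deposited value + 10), with limma over all genes. On that scale NKX2-5 stood at 10.51, 10.62 and 10.43 in TNNT2- libraries and at 11.14, 10.80 and 10.92 in TNNT2+ libraries, which also do not overlap. The log2 difference was -0.44 ± 0.19 (SE, 95% interval -0.84 to -0.04). Its unadjusted p of 0.0344 ranked 38 of 1621 genes, and after Benjamini-Hochberg adjustment over all genes it did not pass (limma, adjusted p = 0.963). Per differentiation the log2 ratios were -0.64, -0.18 and -0.49.

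This value has to be read against the background of the whole library. Of the 7 NKX2 genes, 0 were called at an adjusted p under 0.05 (limma), against 0% of all genes, and edgeR and DESeq2 on summed reads also called 0 NKX2 genes. At an unadjusted p under 0.05 (limma) NKX2-5 was 1 of 7, against 3.82% of all genes. The count was also 1 of 7 with TMM scaling and in DESeq2, but 0 of 7 with control guide scaling and in edgeR. The share of all genes in these alternatives was not counted. Non-overlap of the fractions on the test scale was found for NKX2-5 alone among the 7 genes, against 8.45% of all genes. For summed CPM this share was 8.82%, again with NKX2-5 alone of the 7. The median over the 7 NKX2 genes was -0.05, and over all genes it was 0.05.

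Most NKX2-5 guides were lower in TNNT2- cells, without any single one standing out. Guide 1 had a log2 difference of -1.20, guide 4 of -1.02, guide 2 of -0.65, guide 6 of -0.43, guide 5 of -0.19 and guide 3 of -0.01. Guide 7 was the exception, at 0.45. Thus 6 of 7 guides were lower in TNNT2- cells, and the unadjusted p of single guides went from 0.117 (guide 1) to 0.976 (guide 3). Guide 1 stood at 16.8, 32.5 and 37.8 CPM in 2D TNNT2- libraries, against 109.6, 38.9 and 57.9 CPM in 2D TNNT2+ libraries. Guide 2 stood at 73.4, 73.2 and 73.8 CPM in TNNT2- cells, against 149.9, 108.2 and 89.7 CPM in TNNT2+ cells. Guide 6, the most abundant in 5 of the 6 libraries, stood at 122.2, 259.3 and 219.4 CPM in TNNT2- cells, against 290.6, 262.6 and 212.3 CPM in TNNT2+ cells. The fractions did not overlap for guides 1 and 2 but did for guide 6. For guide 1 the nearest libraries stood at 37.8 and 38.9 CPM. The share of all guides without overlap was not counted. The guides target 1 gene and are no replicates of the condition.

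The other NKX2 genes showed no shared side in the 2D sort. NKX2-6, the other member expressed in the early heart of mice, was at -0.04 (95% interval -0.52 to 0.43). NKX2-1 was at 0.41 (-0.33 to 1.15), its neighbour NKX2-8 at 0.31 (-0.20 to 0.81) and NKX2-3 at 0.16 (-0.20 to 0.52). NKX2-4 was at -0.12 (-0.56 to 0.31) and its neighbour NKX2-2 at -0.05 (-0.50 to 0.40). Their adjusted p by limma lay between 0.963 and 0.978. The sign of NKX2-1 turned when guides were summed before the logarithm (-0.10) and in edgeR and DESeq2 (-0.07 in both). NKX2-4 turned in the same alternatives, to 0.0716 with guides summed and to 0.11 in edgeR and DESeq2. NKX2-2 changed sign in 4 of the 18 alternatives run and NKX2-6 in 3. Without 2D TNNT2+ replicate 1 NKX2-1 was at 0.17 and NKX2-8 at 0.11.

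Single guides of these genes carried larger values than the genes did. Over the family 22 guides were higher and 26 lower in TNNT2- cells, with a median of -0.10, against a median of 0.01 over all guides. At an unadjusted p under 0.05 there were 3 of 48, against 3.34% of all guides, and at an adjusted p under 0.05 there were 0, against 0% (limma). Guide 3 of NKX2-1 had the largest value, 3.33 (adjusted p = 0.986, limma). It stood at 88.9, 43.7 and 30.3 CPM in TNNT2- cells, against 0.0433, 13.5 and 14.6 CPM in TNNT2+ cells, where the first value is 1 read. Guide 2 of NKX2-4 went the other way, at -2.15 (adjusted p = 0.986, limma). It stood at 39.6, 36.6 and 4.56 CPM in TNNT2- cells, against 74.995, 105.1 and 77.4 CPM in TNNT2+ cells. Each gene value had the sign of the guide just given, but most guides of the gene did not. For NKX2-1 4 of 7 guides were lower, and for NKX2-4 4 of 7 were higher. The third NKX2 guide under 0.05 was guide 7 of NKX2-1, at -0.75 (unadjusted p = 0.0330, limma). It lay on the other side from guide 3 of the same gene. For the remaining genes the guides with the smallest p were guide 3 of NKX2-8 (2.02), guide 7 of NKX2-3 (0.69), guide 2 of NKX2-2 (-0.51) and guide 4 of NKX2-6 (-0.47). The 2.02 of NKX2-8 guide 3 includes a library with 3 reads, 2D TNNT2+ replicate 1, and its fractions overlapped.

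In 3D cultures the NKX2-5 value rested on 1 library. NKX2-5 stood at 648.5, 631.4 and 597.0 CPM in 3D TNNT2- replicates 1 to 3, against 703.3, 596.9 and 391.5 CPM in 3D TNNT2+ replicates 1 to 3. The fractions overlapped, and the lowest value was that of the thin TNNT2+ replicate 3. The log2 difference was 0.78 ± 0.77 (SE, 95% interval -0.83 to 2.39, adjusted p = 0.990, limma). Without 3D TNNT2+ replicate 3 it was -0.01, and without all thin libraries 0.25. With guides summed before the logarithm it was -0.11. Per differentiation the log2 ratios were 0.42, -0.06 and 2.00.

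The reads of 3D TNNT2+ replicate 3 were concentrated on few NKX2-5 guides. Guides 1, 4, 5 and 6 had 3, 4, 4 and 5 reads and guide 2 had 62. Guide 3 had 7778 and guide 7 had 1733, so that guide 3 alone made up 81.1% of the 9589 NKX2-5 reads. In 3D TNNT2+ replicates 1 and 2 the most abundant guide held 31.9% and 22.1%. The same pattern, in which some guides were nearly absent and others were abundant, was seen at day 0 replicate 2, where guides 1, 2 and 5 had 2, 6 and 1 reads. Across the 3D sort 5 of 7 NKX2-5 guides were higher in TNNT2- cells. The values lay between 2.92 (guide 6) and -2.22 (guide 3), with guide 1 at 2.12, guide 5 at 1.89, guide 7 at 0.44, guide 2 at 0.38 and guide 4 at -0.05. The smallest unadjusted p was 0.112 (guide 3, limma). The median standard error of a gene was 0.756 in the 3D sort, against 0.253 in the 2D sort.

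NKX2-6 had the smallest p of the family in the 3D sort. On the test scale it stood at 9.66, 7.99 and 8.68 in 3D TNNT2- replicates 1 to 3, against 10.28, 9.89 and 9.41 in 3D TNNT2+ replicates 1 to 3. The first TNNT2- library lay above the third TNNT2+ library, so the fractions overlapped, while each same-numbered pair was lower in TNNT2- cells, at -0.62, -1.90 and -0.73. The log2 difference was -1.08 ± 0.69 (SE, 95% interval -2.52 to 0.36, adjusted p = 0.990, limma), with 5 of 6 guides lower. In summed CPM the fractions were close, at 433.5, 410.0 and 508.2 in TNNT2- cells, against 616.8, 506.6 and 364.8 in TNNT2+ cells. edgeR on summed reads put NKX2-6 at -0.10, and without the thin libraries it was at -0.43. Without 3D TNNT2- replicate 2 alone it was at -0.69. Guide 3 had the smallest p of its guides, at -3.07, with 7 reads in 3D TNNT2- replicate 3.

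NKX2-1 was the only member whose summed CPM did not overlap between the 3D fractions. Its guides summed to 445.2, 540.6 and 709.8 CPM in 3D TNNT2- replicates 1 to 3, against 223.7, 321.2 and 239.1 CPM in 3D TNNT2+ replicates 1 to 3. The CPM of the fractions did not overlap, which held for 8.51% of all genes. On the test scale they did overlap, with 8.66, 10.14 and 8.25 in TNNT2- libraries and 7.52, 8.89 and 8.19 in TNNT2+ libraries. The log2 difference was 0.81 ± 0.95 (SE, 95% interval -1.17 to 2.80, adjusted p = 0.990, limma), and 5 of 7 guides were higher. Without the thin 3D TNNT2- replicate 2 it was 0.25. DESeq2 on summed reads gave 1.13 (adjusted p = 0.292). In 3D TNNT2- replicate 3 guide 2 alone held 53.5% of the NKX2-1 reads. Guide 3, the leading guide of the gene in the 2D sort as well, was at 3.60 (unadjusted p = 0.195, limma). It stood at 36.2, 59.8 and 125.5 CPM in TNNT2- cells, against 10.03, 36.3 and 0.0408 CPM in TNNT2+ cells. The last value is 1 read in a thin library, and the fractions overlapped.

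The remaining members of the family were spread on both sides in 3D. NKX2-4 was at -0.77 (95% interval -2.02 to 0.48), NKX2-8 at 0.49 (-0.66 to 1.64), NKX2-3 at 0.37 (-0.79 to 1.53) and NKX2-2 at -0.03 (-1.52 to 1.46). With TMM scaling, which moved the median over all genes to 0.13 from -0.08, NKX2-2 turned to 0.20. Without 3D TNNT2- replicate 3 NKX2-4 was at -0.30. The NKX2-3 and NKX2-8 signs turned when guides were summed (-0.51 and -0.08). Of the 7 genes 0 were called, against 0% of all genes (limma), and edgeR and DESeq2 also called 0 of the 7. By limma there were 0 of 7 at an unadjusted p under 0.05, against 2.9%, while edgeR and DESeq2 each gave 1 of 7. The share of all genes at that level was not counted for edgeR and DESeq2. On the test scale 0 of 7 had fractions that did not overlap, against 7.53%.

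Of the NKX2 guides in the 3D sort, 1 of 48 had an unadjusted p under 0.05, against 1.29% of all guides, and 0 had an adjusted p under 0.05, against 0% (limma). It was guide 7 of NKX2-3, at -4.27. It stood at 62.7, 68.7 and 0.0947 CPM in TNNT2- cells, against 90.1, 159.4 and 569.4 CPM in TNNT2+ cells, with 3 reads in 3D TNNT2- replicate 3. The same guide was at 0.69 in the 2D sort. Other leading guides were guide 3 of NKX2-4 at -3.69, guide 6 of NKX2-2 at 3.62 and guide 4 of NKX2-8 at 2.80. Each of these had fewer than 10 reads in a thin library: 7 in 3D TNNT2- replicate 3 for NKX2-4, and 4 and 5 in 3D TNNT2+ replicate 3 for NKX2-2 and NKX2-8.

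Whether a knockout acts differently in 3D and 2D was tested as the difference between the sort ratios, with reads of all 12 day 25 libraries scaled together. NKX2-5 had the largest value of the family, 1.31 ± 0.97 (SE, 95% interval -0.72 to 3.34, adjusted p = 0.995, limma), and 6 of 7 guides had a higher ratio in 3D. Without 3D TNNT2+ replicate 3 the value was 0.26, and without the thin libraries 0.75. NKX2-6 was at -0.96 (-2.70 to 0.78), with a lower ratio in 3D for 6 of 6 guides. These guides went from -2.61 (guide 3) to -0.06 (guide 1) and -0.0029 (guide 4). Leaving out 3D TNNT2- replicate 2 gave -0.56 for NKX2-6, and dropping every thin library gave -0.33. With guides summed before the logarithm NKX2-6 was at -0.16, in DESeq2 at -0.07 and in edgeR at -0.05. Over 25 alternatives its value lay between -1.83 and -0.05. NKX2-4 was at -0.54, NKX2-1 at 0.50, NKX2-3 at 0.31, NKX2-8 at 0.29 and NKX2-2 at 0.10. None of the 7 was called (limma), against 0% of all genes, and 0 had an unadjusted p under 0.05 (limma), against 1.23%. In edgeR and in DESeq2 1 of 7 had an unadjusted p under 0.05, and the share of all genes was not counted. Of the guides, 3 of 48 had an unadjusted p under 0.05, against 2.12%, and 0 an adjusted p under 0.05, against 0%. With limma's array weights, which give noisy libraries less weight, NKX2-6 was called at -1.83 (adjusted p = 0.00410), as 1 of 200 genes called among 1621.

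Comparison with day 0 asks whether the knockouts were gained or lost over 25 days of culture and differentiation. Fewer cells of a knockout in the culture and fewer of them in a sorted fraction cannot be told apart here. The labels do not say if the day 0 libraries are separate cultures. Their part of the spread behind the p-values here may be technical only. All 4 comparisons share these libraries, and the median over all genes was not at 0 but at 0.72 for 2D TNNT2-, 0.69 for 2D TNNT2+, 0.08 for 3D TNNT2- and 0.18 for 3D TNNT2+ cells. NKX2-5 had log2 differences from day 0 of 0.70 in 2D TNNT2-, 1.14 in 2D TNNT2+, 0.30 in 3D TNNT2- and -0.49 in 3D TNNT2+ cells. Relative to the medians these are -0.02, 0.45, 0.22 and -0.66.

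None of these NKX2-5 values kept its sign in every alternative. With the median over guides in place of the mean, NKX2-5 was at -0.73 in 2D TNNT2-, -0.56 in 2D TNNT2+ and -0.87 in 3D TNNT2- cells. Without day 0 replicate 2 it was at -0.34 in 2D TNNT2- and -0.48 in 3D TNNT2- cells, and without 3D TNNT2+ replicate 3 it was at 0.30 in 3D TNNT2+ cells.

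The other members, in the order 2D TNNT2-, 2D TNNT2+, 3D TNNT2- and 3D TNNT2+ against day 0, showed no common course. NKX2-6 was at 0.30, 0.35, -1.03 and 0.0495. NKX2-1 was at 1.24, 0.83, 0.79 and -0.0241, and its neighbour NKX2-8 at -0.0607, -0.37, 0.10 and -0.39. These neighbours on chromosome 14 had opposite signs in both 2D fractions, but not with guides summed. NKX2-1 and NKX2-8 were then at -0.64 and -0.60 in 2D TNNT2- and at -0.54 and -0.67 in 2D TNNT2+ cells. NKX2-4 was at 0.56, 0.68, 0.0939 and 0.86, and its neighbour NKX2-2 at 0.69, 0.74, -0.15 and -0.12. NKX2-3, the most abundant member in the pool, was at 0.0060, -0.16, -0.10 and -0.47. Relative to the all-gene medians, the 2D TNNT2- and 2D TNNT2+ values were -0.42 and -0.34 for NKX2-6 and 0.52 and 0.15 for NKX2-1. On that basis NKX2-8 was at -0.78 and -1.05, and NKX2-3 at -0.71 and -0.84. NKX2-4, at -0.16 and -0.0016, and NKX2-2, at -0.03 and 0.05, then lay near the medians.

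In 2D TNNT2+ cells NKX2-5 had the smallest p of the family (95% interval -0.04 to 2.31, adjusted p = 0.578, limma). The day 0 libraries stood far apart on the test scale, at 10.86 in replicate 1 and 8.77 in replicate 2, and the 2D TNNT2+ libraries at 11.14, 10.80 and 10.92 overlapped with that range. Without the thin day 0 replicate 2 the difference was 0.0932. In 2D TNNT2- cells the smallest p was that of NKX2-1, at 1.24 (adjusted p = 0.492, limma). On the test scale it stood at 10.08, 10.03 and 9.79 in 2D TNNT2- libraries, above 9.60 and 7.84 at day 0. In summed CPM it overlapped, with 477.7, 491.5 and 413.0 in 2D TNNT2- libraries and 374.5 and 740.6 at day 0, where guide 7 held 70.6% of the gene's reads in replicate 2. With guides summed NKX2-1 was at -0.64, and without day 0 replicate 2 at 0.36.

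In 3D TNNT2- cells NKX2-6 had the smallest p, at -1.03 relative to day 0 (adjusted p = 0.997, limma). All 3 libraries, at 9.66, 7.99 and 8.68 on the test scale, lay below day 0 at 9.85 and 9.78. In summed CPM they overlapped, with 433.5, 410.0 and 508.2 in 3D TNNT2- libraries and 544.4 and 490.6 at day 0, and edgeR put NKX2-6 at -0.18. In 3D TNNT2+ cells it was NKX2-4, at 0.86 (adjusted p = 0.997, limma), with 1041, 660.9 and 1413 CPM in 3D TNNT2+ libraries and 756.0 and 603.5 CPM at day 0, which overlap. It was at 0.15 without the thin libraries and at 0.45 without day 0 replicate 2.

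No NKX2 gene was called against day 0 by limma, and edgeR and DESeq2 called 0 of the 7 in each comparison. For 2D TNNT2- cells the share of all genes called by limma was 0%. At an unadjusted p under 0.05 (limma) it was 3.27%, against 0 of 7 NKX2 genes. The share that did not overlap with day 0 was 26.7%, against 1 of 7 (NKX2-1). For 2D TNNT2+ cells these shares were 0%, 4.94% and 20.5%, against 0 of 7 NKX2 genes each time. For 3D TNNT2- cells they were 0%, 4.57% and 13.9%, against 0, 0 and 1 (NKX2-6) of 7. For 3D TNNT2+ cells they were 0%, 5.12% and 13.6%, against 0, 0 and 1 (NKX2-3, at -0.47) of 7. With guides summed NKX2-3 turned to 0.52, and its summed CPM overlapped with day 0. Leaving out day 0 replicate 1, so that the thin replicate 2 was the only day 0 library, made NKX2-1, NKX2-2, NKX2-4 and NKX2-5 pass in both 2D fractions. In these fits 1266 of 1621 genes passed for 2D TNNT2- and 1071 for 2D TNNT2+ cells.

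The genes whose abundance across the 14 libraries most resembled that of NKX2-5 were ZNF281 (Pearson r = 0.931), POGK (r = 0.912) and FOXN1 (r = 0.905). For this, reads of all 14 libraries were scaled together. The mean over guides of log2(scaled reads + 10) was used, with each library's median over genes subtracted. These libraries share differentiations and differ in thinness. Over the 10 libraries that are not thin the values were 0.680, 0.684 and 0.693, and the same genes ranked 53, 50 and 46 of 1620. Of the family, NKX2-4 was least like NKX2-5 over 14 libraries (r = -0.741), with -0.117 over 10. Over those 10 libraries NKX2-8 was least like it (r = -0.661, rank 1544 of 1620), with -0.211 over 14.

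NKX2-5 was set beside a list of 21 other cardiac transcription factors with guides, among them GATA4, TBX5, MEF2C, HAND1 and HAND2. In the 2D sort 13 of 21 were higher in TNNT2- cells, with a median of 0.07, against 0.05 over all genes, and 0 of 21 were called (limma). The 2 members with the smallest p were SHOX2, a regulator of the sinoatrial node, at 0.86, and HAND2, which acts in right ventricle formation in mice, at 0.57, both with an adjusted p of 0.963 (limma). In the 3D sort 10 of 21 were higher, with a median of -0.37, against -0.08 over all genes, and 0 were called. MEF2C, a MADS-box factor of muscle, was at 2.46 and HAND2 at -1.11, both with an adjusted p of 0.990 (limma). HAND2 thus lay on opposite sides in the 2 systems, with an adjusted p of 0.995 for the difference (limma).

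Of the 7 other NKX genes with guides, which belong to the NKX1, NKX3 and NKX6 groups, 3 were higher in TNNT2- cells in the 2D sort and 2 in the 3D sort. Their medians were -0.10 in 2D and -0.59 in 3D, and 0 were called in either (limma). NKX1-2 was at -0.60 in 2D and at -0.78 in 3D. NKX6-1, a factor of pancreatic beta cells and motor neurons, was at 0.35 in 2D, and NKX6-3 at -1.46 in 3D.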

How the data were processed

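Guide cassettes were amplified from genomic DNA of 14 libraries in 5 groups. The deposited values are a normalized signal per guide in 2 tables (2D and 3D, each with the day 0 libraries). Guide analysis used MAGeCK and the build hg38, per the submitters' processing notes, and its version is not given in the sources used here. Values are whole multiples of 1 step per library (within 0.001 for 100% of values). Whole reads were therefore recovered for CPM, edgeR (4.0.16) and DESeq2 (1.42.0). The main test was limma (3.58.1, trend) on the mean over guides of log2(deposited value + 10), which understates differences of low guides, with Benjamini-Hochberg adjustment over 1621 genes. Guides needed a mean value of 10 and genes 3 such guides, which all 7 NKX2 genes and 48 guides passed. A call is an adjusted p under 0.05, 2-sided. Differences are TNNT2- minus TNNT2+, day 25 minus day 0, and 3D minus 2D.

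Members and gene lists were chosen with earlier results of these data known. All NKX2 genes are named in every comparison. Also named, by rule, were all NKX2-5 guides, the guide with the smallest p of each other member in each sort, the 3 genes most like NKX2-5 and, per sort, the 2 list members with the smallest p. The labels' protocols say that 3 biological replicates were sorted into both fractions, so equal numbers were taken as 1 differentiation. Deviations of same-numbered fractions correlated at 0.132, 0.121 and 0.154 in 2D and 0.105, 0.0470 and 0.0694 in 3D. Scripts were tested on simulated data. Of 1633 target names 1612 matched RefSeq symbols of GRCh38.p14. Alternatives covered pseudocounts, filters, summaries over guides, scaling, tools, weights, a replicate block and libraries left out.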

Additional observations from a re-analysis of the deposited data

How the results depend on the processing

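No NKX2 gene passed with all libraries at equal weight. Of 49 values (7 genes in 7 comparisons), 11 kept their sign in every alternative run. Among them was NKX2-5 in the 2D sort, which lay between -0.51 and -0.18. Signs are against 0, and the median over all genes also moved with the setting. NKX2-5 in the 3D sort lay between -0.11 (guides summed) and 1.92 (median over guides), and with single libraries left out between -0.01 and 1.26. With a replicate block (paired by replicate number) 0 NKX2 genes and 0 of all genes were called in either sort and in their difference, and NKX2-5 had an adjusted p of 0.896 in 2D (limma). The count of all genes called was 0 in every comparison. In the 3D sort it became 2 with DESeq2, 1 with array weights, and 0 to 2 with single libraries left out. In the difference between systems array weights called 1 NKX2 gene (NKX2-6) and 200 of all genes. Against day 0, DESeq2 called 11 genes for 2D TNNT2-, 11 for 2D TNNT2+, 6 for 3D TNNT2- and 1 for 3D TNNT2+ cells. For 3D TNNT2- cells the median over guides and array weights called 1 each, and single libraries left out gave 0 to 38. With single libraries left out, calls against day 0 were 0 to 4 NKX2 genes and 0 to 1266 of all genes for 2D TNNT2- cells, and 0 to 4 and 0 to 1071 for 2D TNNT2+ cells. NKX2-5 then lay between -0.34 and 1.75 for 2D TNNT2- and between 0.0932 and 2.18 for 2D TNNT2+ cells. The high ends are those without day 0 replicate 1, where the lone day 0 library is thin and is assumed to vary like the other group. Without thin libraries, 3D TNNT2- against day 0 has 1 library on each side and no test was possible. Guides under 10 reads in the thin libraries limit the 3D and day 0 values, and the cause of this unevenness was not tested.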
